A study of Mus musculus with 16 samples.

Results

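Insulin-like growth factor (IGF) genes were followed from nontransgenic B cells to Eμ-xbp-1s B cells and Eμ-xbp-1s multiple myeloma (MM), and 3 of the 4 binding proteins among them separated the groups. Igfbp4 stood far higher in Eμ-xbp-1s B cells and MM than in nontransgenic B cells, whereas Igfbp7 and Igfbp3 stood high in MM alone, and Igfbp5 was called in no comparison. The genes were 8 of the 18193 named genes on the array: the ligands Igf1 and Igf2, the receptors Igf1r and Igf2r, and the binding proteins Igfbp3, Igfbp4, Igfbp5 and Igfbp7. They were taken by symbol and are measured by 26 of the 45037 probe sets (sets of short oligonucleotides that are read together as a single value), each of which the platform annotation assigns to 1 of these genes alone. The set was chosen from earlier results of these arrays, so its members' differences are given as descriptions with no p-value.

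IGF1 and IGF2 are secreted peptides that act through IGF1R, a receptor tyrosine kinase upstream of PI3K and AKT, while IGF2R, the cation-independent mannose 6-phosphate receptor, takes up IGF2 for degradation. The IGF binding proteins hold the ligands in plasma and matrix and limit or present them to the receptor, and IGFBP7 is a relative with low affinity for IGF. In human myeloma, IGF1 is a known growth and survival factor of the malignant plasma cells, and marrow stroma and macrophages are among its sources.

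The arrays carried RNA of B220+ splenic B cells from 5 nontransgenic mice and 5 Eμ-xbp-1s mice, both 20 weeks old, and of 6 MM tumors that arose in Eμ-xbp-1s mice. No age is given for the tumors. The study describes MM in aging mice and compared it with B cells of young mice. Age and tumor therefore cannot be told apart in the comparisons of MM. The transgene holds the mouse xbp-1s cDNA, the spliced form of the transcription factor XBP-1, behind the immunoglobulin VH promoter and Eμ enhancer, followed by eGFP. The Eμ enhancer is active through B cell development and also in some T cells, 2 founder lines (S.7 and S.9) were used in the study, and the line behind each array is not stated in these sources. B cells were taken with magnetic beads, whereas no sort is given for the tumors, and nothing says that the 6 came from separate mice, so that the spread among them may be partly technical.

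Values are intensities on a linear scale, normalized between arrays by the authors, and a log2 difference was computed after values under 50 were set to 50. Array medians ran from 69.0 to 82.9. Summed intensities of 9 T cell genes ran from 733 to 877 in nontransgenic B cells, between 5812 and 7557 in Eμ-xbp-1s B cells and from 638 to 4639 in MM. For 8 B cell genes the sums ran from 31560 to 34810, from 13300 to 26680 and from 712 to 13650 in the same order, so that B cell markers were present in every group and lowest on an MM array. Plasma cell sums (7 genes) ran from 8013 to 9706, from 8479 to 12620 and from 3468 to 13600. Their medians were 8619, 9513 and 8855, so that the MM range held both B cell medians. Of the 9 T cell genes, Cd247 alone was at or under 50 on every nontransgenic array. In such bulk RNA, fewer cells of a type and less RNA per cell cannot be told apart. MM replicates 4 and 5 stood apart, with neutrophil sums (9 genes) of 63280 and 47230 against 936 to 1854 on the other MM arrays, erythroid sums (5 genes) of 13540 and 18730 against 65.3 to 155 and B cell sums of 1386 and 712 against 6150 to 13650. Without both arrays the members past the test in the comparisons of MM were the same in number. They were not all the same sets, since the brightest Igfbp3 set lost its call against Eμ-xbp-1s B cells. Values that rest on these arrays are given beside the genes. Sums for macrophage, stromal and endothelial genes are given beside the members they move with.

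**Figure D1:**
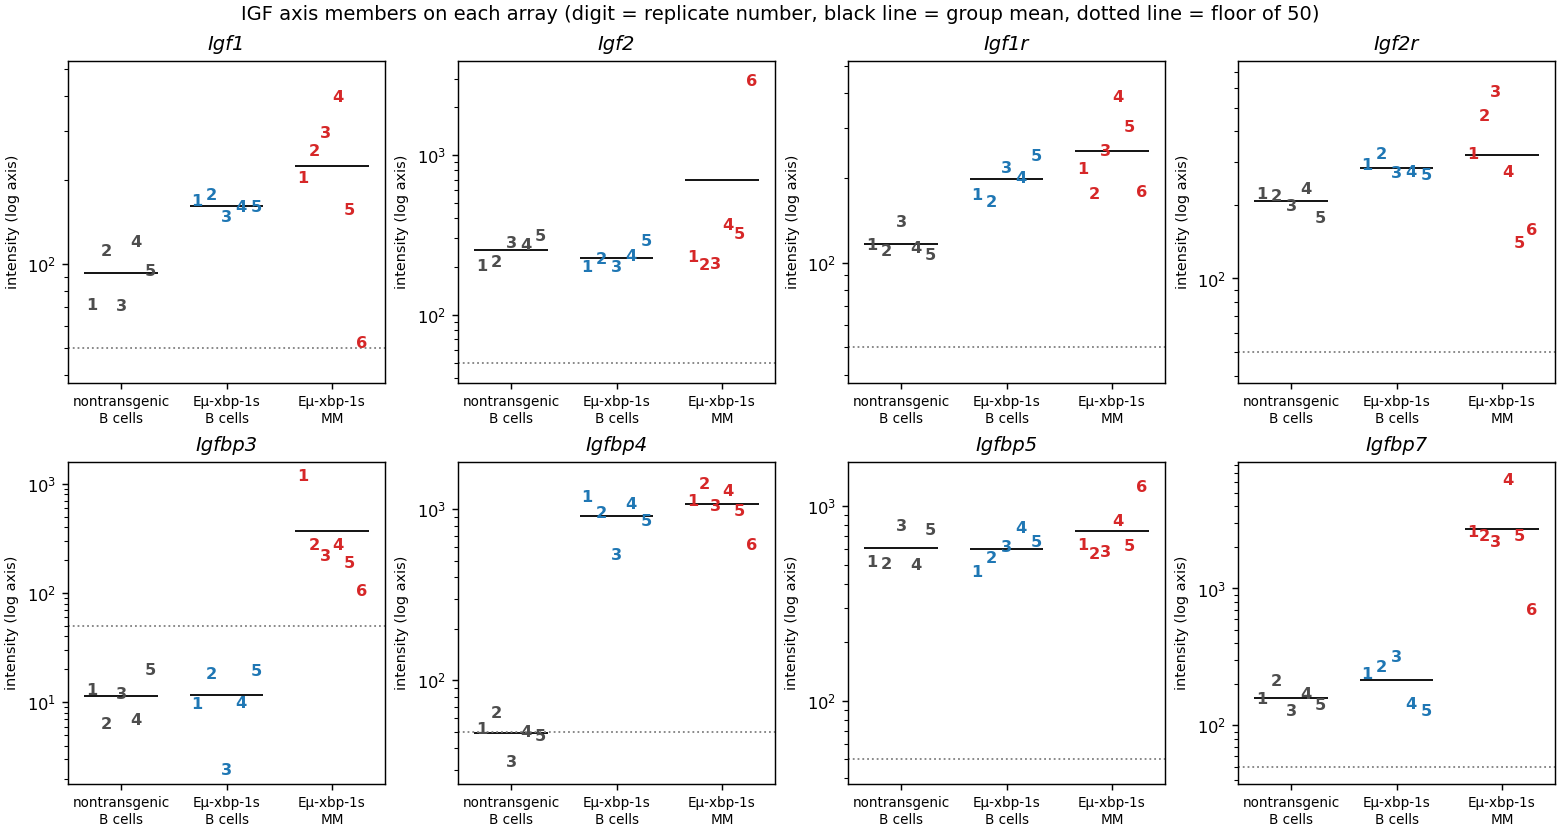
Intensity (log axis) of the brightest probe set of each of the 8 genes on the 16 arrays, in nontransgenic B cells, Eμ-xbp-1s B cells and Eμ-xbp-1s MM. Digits are replicate numbers, black lines arithmetic group means, and the floor of 50 is dotted. Igfbp4 separates nontransgenic B cells from both other groups, Igfbp3 and Igfbp7 separate MM from both groups of B cells, and MM replicate 6 stands at 2860 for Igf2.

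Sequences before an annotated transcription start of Igfbp4 and Igfbp7 are shown first, because Igfbp4 separated nontransgenic from Eμ-xbp-1s B cells, Igfbp7 separated MM from both, and the transgene encodes a transcription factor. They are 250 bases long in the RefSeq annotation of GRCm38.p6, on the strand of the gene: chr11:99040994-99041243 on the plus strand for Igfbp4 and chr5:77408046-77408295 on the minus strand for Igfbp7. The windows of Igfbp4, Igf1 and Igfbp3 lie inside the span annotated for the gene, so that these genes have other starts farther upstream, which were not analysed here. Capitals mark CCACG on either strand (CGTGG where it lies on the opposite strand), the part of the endoplasmic reticulum stress element that XBP-1 and ATF6 can contact.
Igfbp4: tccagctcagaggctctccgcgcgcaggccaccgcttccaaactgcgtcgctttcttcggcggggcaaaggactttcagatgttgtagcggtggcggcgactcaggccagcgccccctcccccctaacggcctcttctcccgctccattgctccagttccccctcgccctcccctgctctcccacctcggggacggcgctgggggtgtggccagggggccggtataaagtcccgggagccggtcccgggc
Igfbp7: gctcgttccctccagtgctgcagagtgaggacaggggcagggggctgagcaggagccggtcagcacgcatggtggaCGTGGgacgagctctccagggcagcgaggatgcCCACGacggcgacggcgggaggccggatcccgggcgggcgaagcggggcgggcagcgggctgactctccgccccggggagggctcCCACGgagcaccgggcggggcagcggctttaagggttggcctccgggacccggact
CCACG occurred at 3 places before Igfbp7, beginning 174, 141 and 56 bases before the start, and at none before Igfbp4. It occurred in 28.3% of 32851 windows of the same length, so that a match is common. TGACGTG, the core preferred by XBP-1, was found in 1.65% of all windows and in none of the windows of the 8 genes. CCAAT, the box bound by NF-Y, was found in 33.8% of windows, among them those of Igf1 and 1 of 4 of Igf2. Matches of TGACGTG can share bases with those of both other motifs. Absence of a motif says only that these letters are not in this window.

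The ligand Igf1 was low in nontransgenic B cells, higher in Eμ-xbp-1s B cells and spread widely in MM. Its brightest probe set read 70.6, 110.2, 70.3, 119.5 and 94.1 on the nontransgenic arrays, and 166.5, 176, 146, 159.6 and 159 on the Eμ-xbp-1s B cell arrays. No value of one group reached the other. The means were 92.9 ± 22.4 (SD, n = 5) and 161.4 ± 10.97 (SD, n = 5), a log2 difference of 0.83 with a standard error (SE) of 0.17, which did not pass the test at an adjusted p of 0.01 but did with the replicate number as a block (log2 difference 0.83), without nontransgenic replicate 4 (0.93), with quantile normalization, with array weights and with a floor of 100. In MM the values ran from 52.0 over a median of 227 to 394, with the lowest on replicate 6 and the highest on replicate 4, so that MM overlapped both groups of B cells. Its log2 difference from nontransgenic B cells was 1.07 (SE 0.43) and not called, but without MM replicate 6 it was 1.44 and called. The other 3 probe sets of Igf1 overlapped in every comparison, with log2 differences between -0.37 and 0.51, so the separation of the B cell groups rests on a single probe set.

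Beside Igf1, the summed intensity of 11 macrophage and monocyte genes moved in the same order. It ran from 4001 to 6100 in nontransgenic B cells, between 8114 and 15540 in Eμ-xbp-1s B cells and from 10140 to 34890 in MM. MM replicate 4 was highest for both, but MM replicate 6, the lowest for Igf1 at 52.0, had a sum of 10340, above the whole nontransgenic range. None of the 11 genes was at or under 50 on every array of a group, and Csf1r, the receptor that defines the lineage, ran from 881 to 1451 on nontransgenic arrays. Adgre1, Cd163 and Fcgr1 did not follow the order of the sum. Their medians in nontransgenic B cells, Eμ-xbp-1s B cells and MM were 390, 628.5 and 336, then 57.15, 234 and 48.7, then 118.5, 117 and 109. The part of macrophages in the Igf1 values was not tested. Ranked by Pearson's r of log2 values over the 16 arrays, the genes most like Igf1 among 11065 were Grn (r = 0.965), which encodes progranulin, Sdc3 (0.953), Csf1r (0.921), Vcam1 (0.92) and the macrophage gene Mpeg1 (0.918). Ranked by deviations from group means, Grn (0.956) and Sdc3 (0.941) stayed among the 5 most alike, while Csf1r, Vcam1 and Mpeg1 did not. These correlations share the array as their source and are descriptions only.

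Igf2 did not follow the groups. Its brightest probe set ran from 199 to 306 in nontransgenic B cells (mean 254 ± 46.0, SD, n = 5) and between 196 and 288 in Eμ-xbp-1s B cells (226.5 ± 37.6, SD, n = 5), and the log2 difference was -0.16 (SE 0.16). MM replicates 1 to 5 lay between 203 and 359, and MM replicate 6 read 2860. Without that array the log2 difference of MM from Eμ-xbp-1s B cells was 0.19, against 0.77 (SE 0.58) with it. The second probe set of Igf2 stood at or under 50 on every nontransgenic and MM array, replicate 6 included at 19.3, and so did not show the high value.

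The 5 genes most like Igf2 over the arrays were Mup5, Dcpp3, Egf, Cxcl17 and Fbxl17, with r from 0.92 to 0.96. For the first 4 the likeness rested on MM replicate 6, since r fell to between 0.044 and 0.44 without it, while Fbxl17 kept 0.846. Mup5, a member of the major urinary protein family, read 5289 on that array and at most 159.5 on the other MM arrays. Dcpp3, which is known from salivary gland, read 5491 against at most 296, and Egf, a growth factor abundant in the mouse submandibular gland, read 1293 against at most 177. Whether tissue other than tumor on that array bears on its Igf2 value was not tested.

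The receptor Igf1r was higher in Eμ-xbp-1s B cells and MM than in nontransgenic B cells. Its brightest probe set read 115, 109.6, 139, 112 and 106 on the nontransgenic arrays and 173, 163, 216, 199 and 239 on the Eμ-xbp-1s B cell arrays. The groups did not overlap, with means of 116 ± 13.1 and 198 ± 30.8 (SD, n = 5 each) and a 1.69-fold difference (log2 0.76, SE 0.14) that passed the test. MM ran from 174 over a median of 231 to 384 (mean 249.6 ± 81.1, SD, n = 6), 2.07-fold above nontransgenic B cells (log2 1.05, SE 0.21), also past the test. MM overlapped Eμ-xbp-1s B cells, with a log2 difference of 0.29 (SE 0.23). The highest MM values, 384 and 301, were those of replicates 4 and 5, the arrays with high neutrophil and erythroid and low B cell sums. Without both, MM differed from nontransgenic B cells by 0.80 on the log2 scale, still past the test, and from Eμ-xbp-1s B cells by 0.04. The part of other cells in the Igf1r values was not tested.

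The calls of Igf1r did not hold in every fit. That in Eμ-xbp-1s B cells was lost in 7 of 10 fits that left out 1 array, among them nontransgenic replicates 1, 2, 4 and 5 and Eμ-xbp-1s replicates 3, 4 and 5, although the log2 difference stayed between 0.69 and 0.83, and that in MM against nontransgenic B cells was lost without nontransgenic replicate 1, 2, 4 or 5. Both were lost when probe sets were not filtered on level, and that in Eμ-xbp-1s B cells also in a single fit of all 3 groups. A second probe set behaved alike at lower brightness, from 27.4 to 43.9 in nontransgenic B cells and between 76.6 and 125 in Eμ-xbp-1s B cells, at least 1.90-fold, but passed the level filter in the comparisons of MM only and was not called there. The remaining 3 probe sets were too dim to be tested. Of these, 1452108_at read 12.6 to 27.9 in nontransgenic B cells and 35.7 to 76.9 in MM, apart before the floor was set but with 3 MM arrays under it, and the other 2 overlapped in every comparison. The genes most like Igf1r included Gda, which encodes guanine deaminase, Ctbp2 and Sqor, each with r = 0.942. Of these, Ctbp2 alone (0.926) was also among the 5 most alike by deviations from group means.

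Igf2r, which clears IGF2 from the cell surface, was also higher in Eμ-xbp-1s than in nontransgenic B cells on both of its probe sets. The brighter set read 221, 216.5, 197, 231 and 177 in nontransgenic B cells and 290.3, 320.5, 268, 272 and 264 in Eμ-xbp-1s B cells. These groups did not overlap (log2 difference 0.45, SE 0.12), but the difference did not pass the test. The other set rose from 142 to 282 in the mean (log2 0.98, SE 0.17, 1.98-fold), which passed. This call may not hold in every fit. The count of member sets past the test fell from 6 to 4 when all groups were fitted together. It fell as far in several fits that left out an array. Igf1r lost its call in each of these, so a further set, of Igf2r or Igfbp4, was lost as well. Whether it was this Igf2r set is not given here. In MM the brighter set ran from 138 over a median of 295.5 to 574. MM replicates 2 and 3 were above every B cell array and replicates 5 and 6 below every one, so that MM spanned the whole range, and its log2 difference from Eμ-xbp-1s B cells was -0.01 (SE 0.34).

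**Figure D2:**
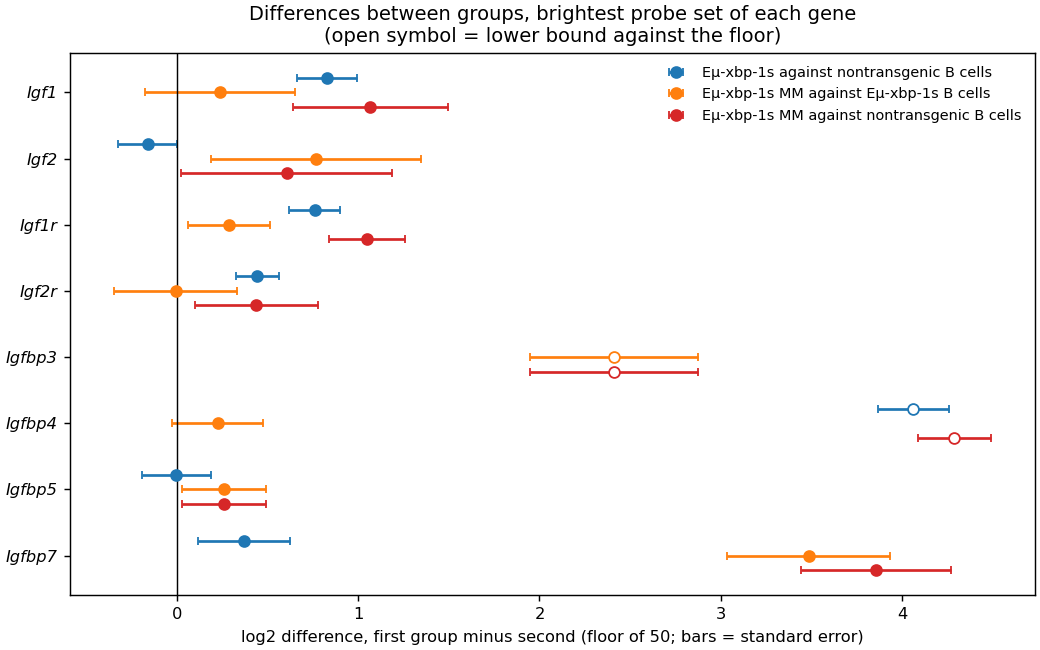
Log2 differences of the brightest probe set of each gene in the 3 comparisons, first group minus second, with bars for the standard error. Open symbols are lower bounds, because most arrays of the lower group were at or under the floor of 50. The Igfbp4 bounds of 4.06 and 4.29 and the Igfbp7 differences of 3.49 and 3.86 lie farthest from 0, and the Igf1, Igf2, Igf1r, Igf2r, Igfbp4 and Igfbp5 differences of MM from Eμ-xbp-1s B cells lie within 2 standard errors of 0.

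Igfbp4, a secreted binding protein that mostly restrains IGF action until the protease PAPP-A cleaves it, showed the largest difference of the 7 genes tested in Eμ-xbp-1s B cells. Its brightest probe set read 51.2, 64.3, 33.1, 49.4 and 47.2 on the nontransgenic arrays. On the Eμ-xbp-1s B cell arrays it read 1168, 948, 536, 1071 and 842. Even the lowest of these lay far above every nontransgenic value, and the difference was at least 16.7-fold (log2 4.06, SE 0.20). MM ran from 612 over a median of 1075 to 1394, at least 19.5-fold above nontransgenic B cells (log2 4.29, SE 0.20), and overlapped Eμ-xbp-1s B cells with a log2 difference of 0.23 (SE 0.25). The transgenic B cells and MM could not be told apart beyond the spread of the arrays.

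The 6 probe sets of Igfbp4 fell into 2 kinds. The 4 sets 1423756_s_at, 1423757_x_at, 1437405_a_at and 1437406_x_at separated nontransgenic B cells from both other groups, by 8.46-fold to at least 16.7-fold in Eμ-xbp-1s B cells. The sets 1421991_a_at and 1421992_a_at read 91.3 and 283.5 in the mean of nontransgenic B cells against 144 and 377 in Eμ-xbp-1s B cells, with log2 differences of 0.61 (SE 0.25) and 0.36 (SE 0.19) and overlapping groups. In MM the set 1421992_a_at read 310.3 to 545 against 258 to 304 in nontransgenic B cells, which did not overlap, but its log2 difference of 0.64 (SE 0.17) did not pass the test. The mean of all 6 sets gave a log2 difference of 2.53. Where each set lies in the transcript was not analysed here.

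**Figure D3:**
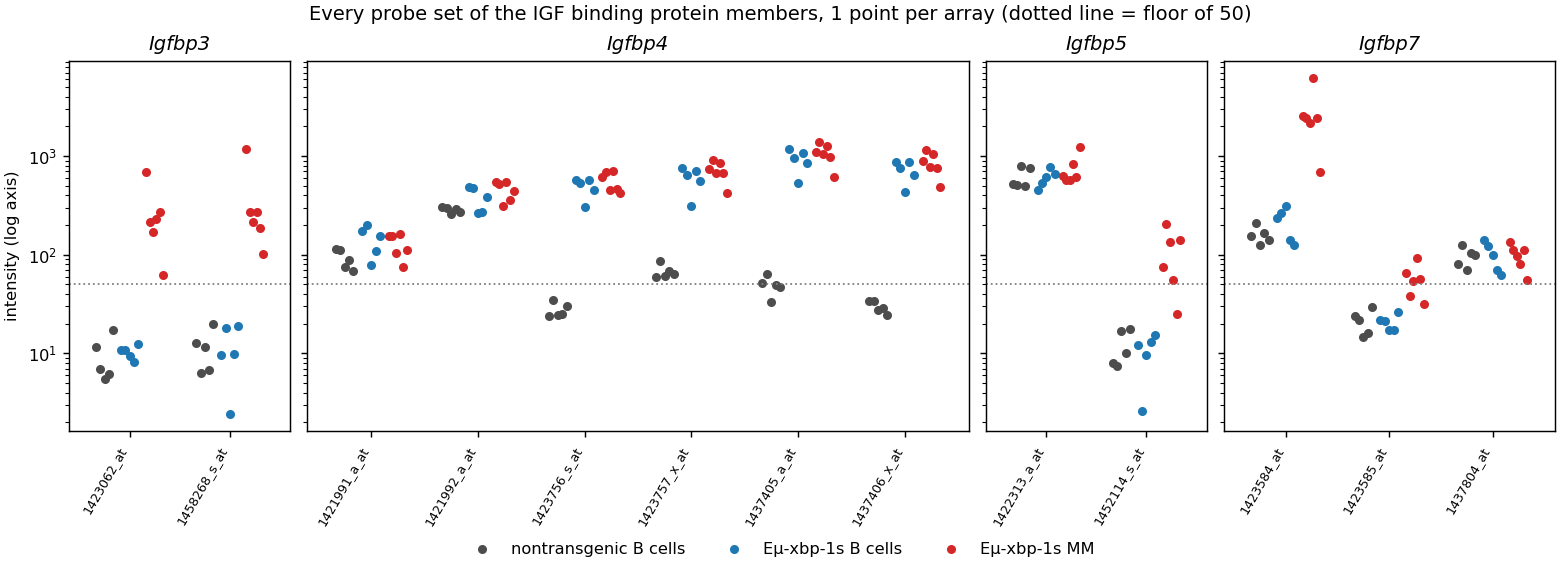
Intensity (log axis) of every probe set of Igfbp3, Igfbp4, Igfbp5 and Igfbp7, with 1 point per array, in the 3 groups, with the floor of 50 dotted. The 4 Igfbp4 sets with a strong difference place nontransgenic B cells between 24.0 and 87.0, the other 2 place them among the Eμ-xbp-1s B cells, and the brightest of 3 Igfbp7 sets carries the MM values of 695 to 6193.

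Sums of T cell and of macrophage genes, given above, were higher in the same Eμ-xbp-1s B cell samples. Eμ-xbp-1s replicate 3 had the lowest Igfbp4 value of its group, 536, and also the lowest macrophage sum, 8114, and the lowest T cell sum, 5812. The same array had the lowest B cell sum of its group, 13300, and the highest erythroid sum, 8018. Neutrophil sums ran from 989 to 1847 in nontransgenic and between 9678 and 28780 in Eμ-xbp-1s B cells. NK cell sums (6 genes) ran from 846 to 1138 and between 2392 and 4483, and erythroid sums up to 273 and between 663 and 8018. All of these lists were thus higher in Eμ-xbp-1s than in nontransgenic B cells, which did not hold on every MM array. MM replicate 2 had the highest Igfbp4 value, 1394, with an erythroid sum of 101. In MM, Igfbp4 read 1262 and 972 on replicates 4 and 5, where T cell sums were 1029 and 638 and neutrophil sums 63280 and 47230. On the other 4 MM arrays it ran from 612 to 1394, with neutrophil sums from 936 to 1854. NK cell sums in MM ran from 782 to 2756. The part of T cells, macrophages, neutrophils, NK cells and erythroid cells in the Igfbp4 values was not tested. The genes most like Igfbp4 over the 16 arrays were Id2 (r = 0.976), an inhibitor of helix-loop-helix factors, the interferon-induced Ifitm3 (0.971) and Ifitm2 (0.942), Tgfbi (0.952) and the lysozyme gene Lyz1 (0.941). These r values include the step between groups. By deviations from group means, none of these genes was among the most alike, which were Spty2d1 (0.939), Calu, Pdcd6ip, Slmap and Rps6ka3 (0.917).

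Igfbp7, a secreted protein of vessel walls and stroma, was high in MM alone. Its brightest probe set read 154, 210.3, 126, 168 and 140.3 in nontransgenic B cells and 233, 264, 315, 142 and 126 in Eμ-xbp-1s B cells, and these groups overlapped (log2 difference 0.37, SE 0.25). In MM it ran from 695 over a median of 2404 to 6193. The lowest MM array lay above the highest B cell array, and MM stood 11.2-fold above Eμ-xbp-1s B cells (log2 3.49, SE 0.45) and 14.5-fold above nontransgenic B cells (log2 3.86, SE 0.41). Of the other 2 probe sets, 1437804_at overlapped in every comparison, with means of 95.7, 99.1 and 98.4 in nontransgenic B cells, Eμ-xbp-1s B cells and MM, and 1423585_at, at 14.7 to 29.6 in both groups of B cells and 31.3 to 92.7 in MM, was also higher on every MM array than on any B cell array but too dim to be tested. Without MM replicates 4 and 5 the log2 differences of the brightest set were 3.10 and 3.47, both past the test.

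Igfbp3, the main carrier of IGF1 in plasma, was near the bottom of the scale in B cells and measurable in MM. Its brightest probe set ran from 6.30 to 19.6 in nontransgenic B cells and between 2.40 and 19.1 in Eμ-xbp-1s B cells, all under the floor. In MM it ran from 103 over a median of 243.5 to 1166, with replicate 1 highest and replicate 6 lowest. No MM array overlapped a B cell array, and MM was at least 5.32-fold higher than either group (log2 2.41, SE 0.46). Its second probe set ran from 62.2 to 693 in MM, at least 4.29-fold above both groups of B cells, and passed the test against nontransgenic B cells only. Neither set exceeded 50 on a B cell array, so that both entered the test through MM arrays alone.

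The Igfbp3 calls depended on single arrays and settings. Against Eμ-xbp-1s B cells it was lost in 8 of 11 fits that left out 1 array, namely any of the 5 Eμ-xbp-1s arrays or MM replicate 2, 4 or 5. It was also lost without MM replicates 4 and 5 together (log2 2.54) and as the mean of both probe sets (2.26). Against nontransgenic B cells the call was lost in 5 of 11 such fits, without any of the nontransgenic arrays. In both comparisons it was lost with no filter on level, and with a floor of 100, where the log2 difference was 1.41.

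The sum of stromal genes was higher on the same MM arrays. The summed intensity of 13 stroma and bone genes ran from 719 to 996.5 in nontransgenic B cells, between 702 and 1033 in Eμ-xbp-1s B cells and from 6051 to 13350 in MM. Col3a1, Dcn, Lum, Sparc and Pdgfrb were at or under 50 on every array of both B cell groups. In MM, Dcn, a small matrix proteoglycan, ran from 105 to 3366 and Sparc, a matrix glycoprotein, from 662 to 2186. Fbln1 and Alpl of the same list did not go with the sum. Their medians were 209.5, 169 and 213, and 77.1, 88.5 and 81.7, in nontransgenic B cells, Eμ-xbp-1s B cells and MM. The sum of 12 endothelial genes ran from 1148 to 1354, from 1304 to 1685 and from 1397 to 4162 in the same order. Among these genes the median of Pecam1 fell (269, 143 and 109), and those of Tek, Egfl7, Stab2 and Vwf did not rise at each step. MM replicate 4 had the highest endothelial sum and the highest Igfbp7 value. MM replicate 6 had the lowest stromal and endothelial sums and the lowest Igfbp7 and Igfbp3 values. MM replicate 1 had the highest stromal sum, 13350, and the highest Igfbp3 value, 1166. The stromal sum of MM replicate 2 was close to it at 13250, but its Igfbp3 value was 273. The part of stromal and endothelial cells in the Igfbp7 and Igfbp3 values was not tested.

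The genes most like Igfbp7 over the 16 arrays were Osmr (r = 0.983), the oncostatin M receptor, Pcolce (0.977), which aids collagen maturation, the proteoglycan gene Bgn (0.974), and Il1r1 and Cxcl12 (0.973 each). Those most like Igfbp3 were the complement inhibitor Serping1 (0.956), Ms4a4d (0.946), 2510009E07Rik (0.939), Ltbp2 (0.937) and Cxcl12 (0.936). Cxcl12, the chemokine that retains plasma cells in marrow, was thus named for both genes. It ran from 24.3 to 37.2 in nontransgenic B cells, between 30.4 and 68.1 in Eμ-xbp-1s B cells and from 517 to 2670 in MM. Ranked by deviations from group means, only Pcolce (r = 0.903) stayed among the 5 most like Igfbp7. For Igfbp3, only Serping1 (0.859) and Cxcl12 (0.84) stayed.

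**Figure D4:**
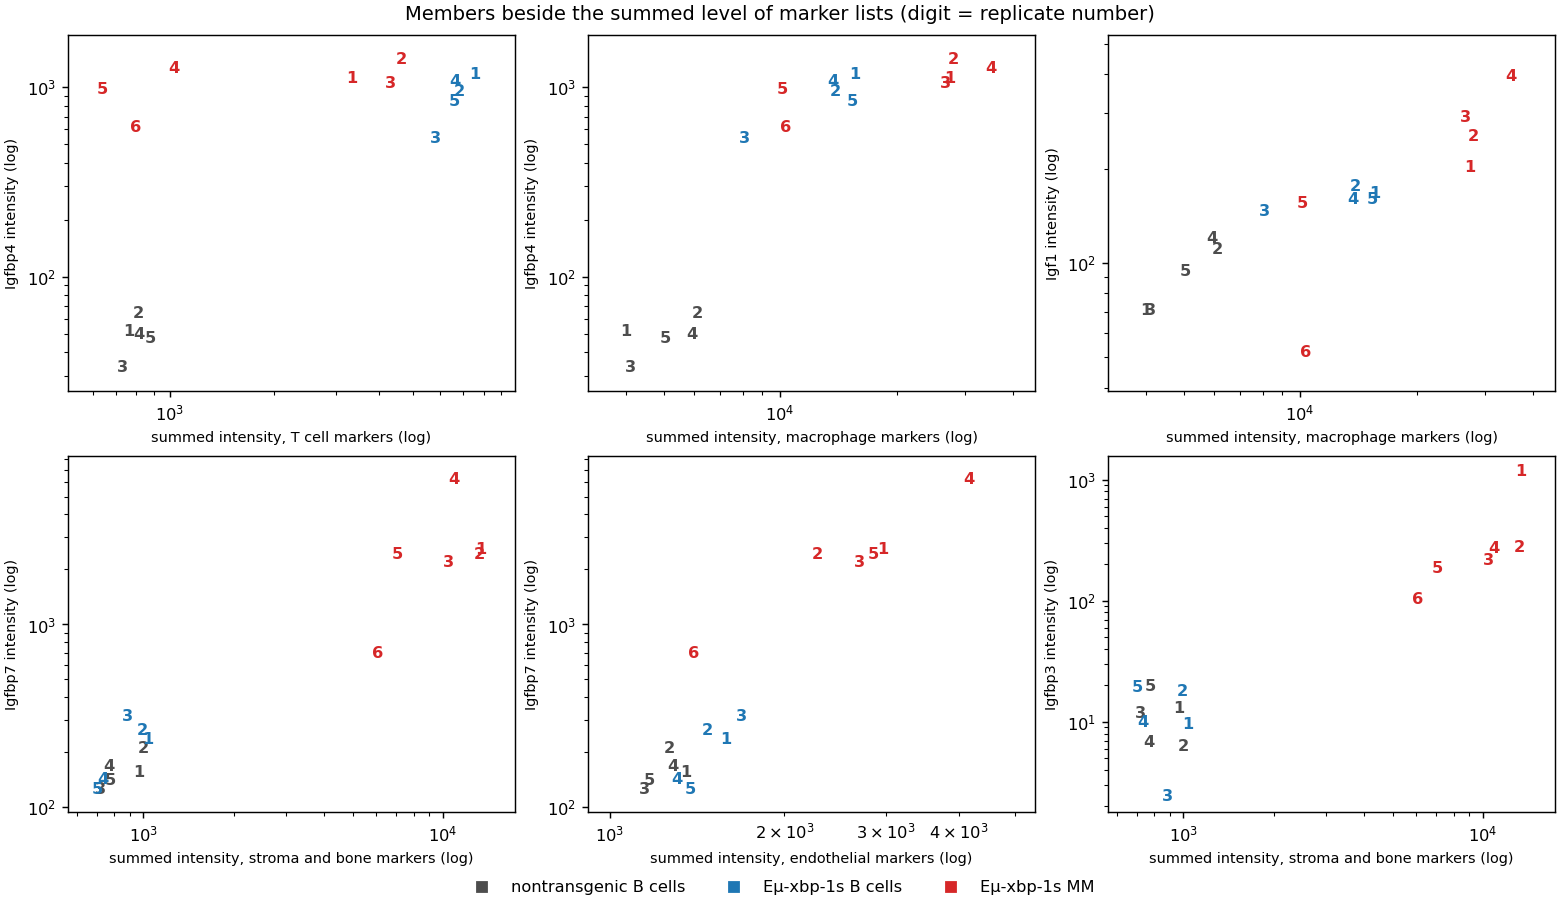
Intensities of Igfbp4, Igf1, Igfbp7 and Igfbp3 (vertical, log axis) against the summed intensity of T cell, macrophage, stromal or endothelial genes on the same array (horizontal, log axis); digits are replicate numbers and colours the 3 groups. Igfbp7 and Igfbp3 are high on the 6 MM arrays with stromal sums from 6051 to 13350, and Igfbp4 is high both on Eμ-xbp-1s B cell arrays with T cell sums above 5812 and on MM arrays with sums down to 638.

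Igfbp5, a binding protein of bone and stroma, did not separate the groups on its brighter probe set. It read 515, 503, 788, 493.4 and 749.6 in nontransgenic B cells and 455, 536, 613, 773 and 652 in Eμ-xbp-1s B cells, with a log2 difference of 0.00 (SE 0.19). MM ran from 566 over a median of 624.6 to 1248, the highest on replicate 6, and overlapped both groups. The second set, 1452114_s_at, ran from 2.59 to 17.8 in B cells and from 25.2 over a median of 105 to 206 in MM. It was higher on every MM array than on any B cell array before the floor was set, but replicate 5 stayed under 50 and the log2 difference of at least 0.95 (SE 0.34) did not pass the test.

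Counted over all probe sets tested, 6 of the 17 tested in Eμ-xbp-1s compared with nontransgenic B cells were called higher, from Igf1r, Igf2r and Igfbp4, against 2.75% of all probe sets. None was called lower, against 0.481%, and 8 of 17 did not overlap, after the floor was set, with the Eμ-xbp-1s arrays higher, against 5.58%. In MM against Eμ-xbp-1s B cells, 2 of 21 were called higher (1 each of Igfbp3 and Igfbp7), against 1.28%, none lower, against 1.91%, and 3 of 21 did not overlap with MM higher, against 3.9%. In MM against nontransgenic B cells, 8 of 21 were called higher, from Igf1r, Igfbp3, Igfbp4 and Igfbp7, against 3.95%, none lower, against 5.65%, and 10 of 21 did not overlap with MM higher, against 6.28%. At an unadjusted p under 0.05 limma called 0 members lower in each comparison, a level for which no share over all probe sets is given here. The median log2 difference of the members tested was 0.45, 0.24 and 0.95 in these 3 comparisons, where that of all probe sets tested was -0.05, 0.00 and -0.03. Since earlier results of these arrays chose the genes, nothing is read from these shares, and the comparisons share their arrays.

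Genes around the IGF members were then counted. The lists fixed for the pathway held 53 genes: carriers, cofactors and proteases of IGF, insulin receptor family and adaptors, PI3K, AKT, FOXO and mTOR, and the Igf2 locus with IGF2 mRNA binding proteins. Of these, 47 were listed in the annotation. In Eμ-xbp-1s compared with nontransgenic B cells, none of the 27 tested passed in either direction. Of all probe sets tested, 2.75% were called higher and 0.481% lower. Limma at an unadjusted p under 0.05 called 4 higher and 0 lower, a level for which no share over all probe sets is given here. Foxo3, a transcription factor that AKT keeps out of the nucleus, came nearest, with 303 ± 33.5 in nontransgenic and 532 ± 129 in Eμ-xbp-1s B cells (log2 difference 0.79, SE 0.17, limma adjusted p = 0.0137).

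In MM against Eμ-xbp-1s B cells 1 of 32 passed, where 1.28% of all probe sets were called higher and 1.91% lower. That gene was Grb10, an adaptor that binds the insulin and IGF1 receptors and dampens their signal. It rose from 85.3 ± 26.6 (SD, n = 5) to 191 ± 41.6 (SD, n = 6), a log2 difference of 1.19 (SE 0.23, limma adjusted p = 0.0082). The call was lost in 10 of 11 fits that left out 1 array, all but that without Eμ-xbp-1s replicate 3, and without MM replicates 4 and 5 together (log2 1.21). Of its tested probe sets, 1 of 2 passed. Against nontransgenic B cells (71.9 ± 8.23, SD, n = 5) the log2 difference of Grb10 was 1.39 (SE 0.17, limma adjusted p = 0.000186), and this call held in every alternative run. On every MM array Grb10 was above every B cell array, with MM from 145 to 267.5 and B cells up to 114.

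In MM against nontransgenic B cells 5 of 32 passed, 3 higher and 2 lower. Of all probe sets, 3.95% were called higher and 5.65% lower, and nothing is read from counts this small. Besides Grb10, Htra1, a secreted protease that can cleave IGF binding proteins, was at least 5.94-fold higher (6.87 to 18.4 against 94.0 to 733, limma adjusted p = 0.00714), and Pik3cb, a catalytic subunit of PI3K, at least 2.31-fold (limma adjusted p = 0.00977). Foxo1, a factor of B cell development held back by AKT, fell from 1479 ± 58.9 (SD, n = 5) to 552 ± 273 (SD, n = 6), a log2 difference of -1.63 (SE 0.37, limma adjusted p = 0.00907). Tsc1, part of the complex that restrains mTOR, fell from 234 ± 11.3 to 133 ± 29.0 (log2 difference -0.85, SE 0.17, limma adjusted p = 0.00414). Of the tested probe sets, 1 of 2 of Htra1 and 1 of 3 of Foxo1 passed. The calls other than Grb10 were lost in 5 to 10 of 11 fits that left out 1 array, each without any of the 5 nontransgenic arrays, and those of Pik3cb (log2 0.87) and Tsc1 (-0.87) also without MM replicates 4 and 5 together. The B cell sums of MM, given above, were lower than those of nontransgenic B cells, and their part in these calls was not tested.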

How the data were processed

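Intensities of Affymetrix 430 2.0 arrays were used as deposited. Per the study's methods, the authors scaled the arrays against a median-intensity baseline array with dChip and computed model-based expression (perfect match minus mismatch). Groups and replicate numbers came from the labels. After 64 controls were left out, 45037 probe sets remained, and the probe set brightest on average across the 16 arrays stands for its gene. Values under 50 were set to 50, and log2 values were fitted pair by pair of groups with limma (version 3.58.1, R 4.3.3) where over 20% of the arrays in the pair exceeded 100. Adjustment was by Benjamini-Hochberg over all probe sets fitted with a threshold of 0.01. SAM and presence calls, which the methods name, were not used. The fit was tested on simulated data. Other pathway genes were named by size of change among those past the test, and the nearest one that missed it was named after its values were seen. Members and lists were chosen with earlier results of these data known.

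B cell arrays that carry the same number in both genotypes deviated together from their group means (r = 0.498, 0.519, 0.21, 0.171 and 0.496). Only Eμ-xbp-1s replicate 2, however, correlated best with the nontransgenic array of its own number, so pairing is not established. The main fit used the group alone, with the replicate number as a block in an alternative only. Alternatives were other floors, a pseudocount of 50, no filter, quantile normalization, median scaling, other variance models, a single fit, array weights, a replicate block, a looser threshold, probe-set means and each array left out in turn. The number of arrays limits the precision. Python 3.11.15, pandas 2.3.3 and matplotlib 3.10.9 served for tables and plots.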

Additional observations from a re-analysis of the deposited data

Results flagged for a closer look

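Of 63 sets of values (1 probe set in 1 group), 4 had an array set apart from the others of its group by a wide gap, where chance gives about 1 in 20. All 4 were MM arrays, and the probe sets of Igfbp3 measure the same RNA. MM replicate 6 read 2860 for Igf2 where the other MM arrays lay between 203 and 359. MM replicate 1 read 1166 for Igfbp3 on the brighter probe set, against 103 to 273 on the others, and 693 on the second, against 62.2 to 269.7. MM replicate 4 read 6193 for Igfbp7, against 695 to 2561.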

How the results depend on the processing

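Directions did not reverse for any result past the test. The call of Igfbp4 in both comparisons with nontransgenic B cells and that of Igfbp7 in MM against nontransgenic B cells held in every alternative and with any array left out, while the Igfbp4 difference of 4.06 in Eμ-xbp-1s B cells became 3.14 with a floor of 100, 3.25 with a pseudocount of 50 and 2.53 as the mean of its probe sets. As the mean of its probe sets, Igfbp7 in MM against Eμ-xbp-1s B cells had a log2 difference of 1.251 and was not called.

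Array weights raised the count of member probe sets past the test from 6 to 10 in Eμ-xbp-1s compared with nontransgenic B cells, from 2 to 4 in MM compared with Eμ-xbp-1s B cells and from 8 to 14 in MM against nontransgenic B cells. In MM against Eμ-xbp-1s B cells, the member count was 4 with a floor of 16, 1 with a floor of 100 and 1 with no filter. In MM against nontransgenic B cells it was 5 with no filter. With 1 array left out the member counts ran from 4 to 6, from 1 to 3 and from 5 to 9 in the order given. The low counts of 1 came without any Eμ-xbp-1s B cell array or MM replicate 2, 4 or 5, and those of 5 without nontransgenic replicate 1, 2, 4 or 5.

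For the other IGF axis genes, the count of 0 in Eμ-xbp-1s compared with nontransgenic B cells became 3 with array weights and 1 at an adjusted p under 0.05, and ran from 0 to 1 with an array left out (1 without Eμ-xbp-1s replicate 2). The count of 1 in MM against Eμ-xbp-1s B cells became 2 with a floor of 16, a pseudocount of 50 or median scaling, 0 with no filter, quantile normalization or the replicate block, 4 in a single fit or at an adjusted p under 0.05 and 12 with array weights, and ran from 0 to 1 with an array left out. The count of 5 in MM against nontransgenic B cells became 2 with a floor of 100, no filter or probe-set means, 3 with the replicate block, and ran from 1 to 4 with an array left out, being 1 without any nontransgenic array. The causes were not tested, beyond the number of probe sets that no filter adds and the arrays that each fit loses. In MM the replicate numbers share only a number (correlations from -0.272 to 0.446 with Eμ-xbp-1s B cells and from -0.257 to 0.32 with nontransgenic B cells), and MM replicate 6 has no partner. Among the brightest probe sets of the 8 genes, fits with the replicate block changed only calls of Igf1, which passed against nontransgenic B cells in Eμ-xbp-1s B cells (log2 difference 0.83) and in MM (1.44). In MM such fits also lose replicate 6, and 1.44 passed without that array with no block as well. With the block, the differences of MM from Eμ-xbp-1s B cells in Grb10 (1.09) and from nontransgenic B cells in Foxo1 (-1.69) and Tsc1 (-0.77) were not called.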
